A study of Mus musculus with 28 samples.

Results

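CJ7 mouse embryonic stem cells (mESCs) whose Elongin A gene was edited to carry the K754R substitution were compared with wild type CJ7 mESCs across all genes. The comparison rests on 2 K754R and 2 wild type libraries, 4 of the 28 libraries of the study, chosen by their genotype labels. Total RNA was depleted of ribosomal RNA, sequenced, and deposited as RPKM, a read count divided by exon length and library size. Of the 37583 genes in the table, 21012 reached 0.25 RPKM in at least 2 CJ7 mESC libraries and were tested.

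The labels give the 2 genotypes the same line, the same stage and the same culture. Cells grew on gelatin with inactivated mouse embryonic fibroblast feeders, in serum medium with LIF and the inhibitors PD0325901 and CHIR99021, and feeders were depleted by plating before lysis, at a stated passage of 15-26. Beside them stand 2 CJ7 mESC libraries with the K754M substitution and 2 Eed null ones, which share the fit and the wild type libraries. Day 5 embryoid bodies (EBs) are the differentiating aggregates that form once LIF is withdrawn. They were used as 2 K754R and 2 wild type CJ7 libraries. The fit of EBs also held 2 K754M and 2 Eed null EB libraries of CJ7. CCE mESCs, another line, were used as 3 EloA null and 3 wild type libraries. The labels call the substitution lines edited and do not say whether a line is 1 clone or whether replicates are separate cultures, so p-values measure only the spread between these libraries, which may be technical. A difference between clones and a difference made by the substitution cannot be told apart in this design.

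Elongin A is the large subunit of the Elongin complex, which raises the rate at which RNA polymerase II transcribes, and with Elongin B and Elongin C it can also act in a ubiquitin ligase. PRC2 is the Polycomb complex that methylates lysine on histone H3, and the title of the series names Elongin A as another protein that it methylates. K754R puts arginine in the place of 1 lysine of Elongin A, which keeps a positive charge, and K754M puts methionine there. The comparison asks which RNAs differ when that lysine is replaced.

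From the step that 1 read makes in the RPKM of short single-exon genes, depth was estimated at 11200000 and 18100000 reads in the K754R libraries and at 11000000 and 13500000 reads in wild type. Stem cell genes were high in all 4 libraries. Pou5f1, a core pluripotency factor, had 286 and 299.8 RPKM in K754R and 280.3 and 299.6 in wild type, and Nanog, another, had 514 and 537 in K754R and 486 and 683 in wild type. The second K754R library stood apart in fibroblast markers, which feeder cells express. The summed RPKM of 38 fibroblast markers was 1258 and 3597 in the K754R libraries and 1003 and 1261 in wild type. Genome-wide correlation of log2 values was 0.952 between the K754R libraries and 0.968 between the wild type libraries. It was 0.986 between the 2 Eed null libraries that share the fit. With the 2 wild type libraries the first K754R library was at 0.957 and 0.960, and the second at 0.938 and 0.957. The K754R libraries were thus not closer to each other than to wild type genome-wide.

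Tceb3, the gene of Elongin A, had 7.48 and 10.2 RPKM in K754R mESCs and 10.7 and 12.2 in wild type. Both K754R values were below both wild type values, but the log2 change of -0.37 did not pass the test (adjusted p = 0.411). A substitution need not change the RNA level, so this value does not check the edit.

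At an adjusted p below 0.05, 16 genes (0.0761%) rose and 18 (0.0857%) fell in K754R mESCs, 34 of 21012, or 0.162%. The test was limma-trend on log2(RPKM + 0.5), on which low genes show smaller changes than their plain ratios, and the log2 changes are given with its standard error. An unadjusted p below 0.05 was reached by 3000 genes. With any 1 of the 4 libraries left out, none of the 34 passed (adjusted p from 0.0554 to 0.333), and the direction was the same in all 128 such values. Where the 2 groups of a gene do not overlap, leaving out 1 library cannot turn its direction, so those values do not check it. The count of called genes moves with the fit as well, from 0 with only the 4 libraries to 1747 with all 14 mESC libraries, CCE included. Of the called genes 19 are protein coding.

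**Figure D1:**
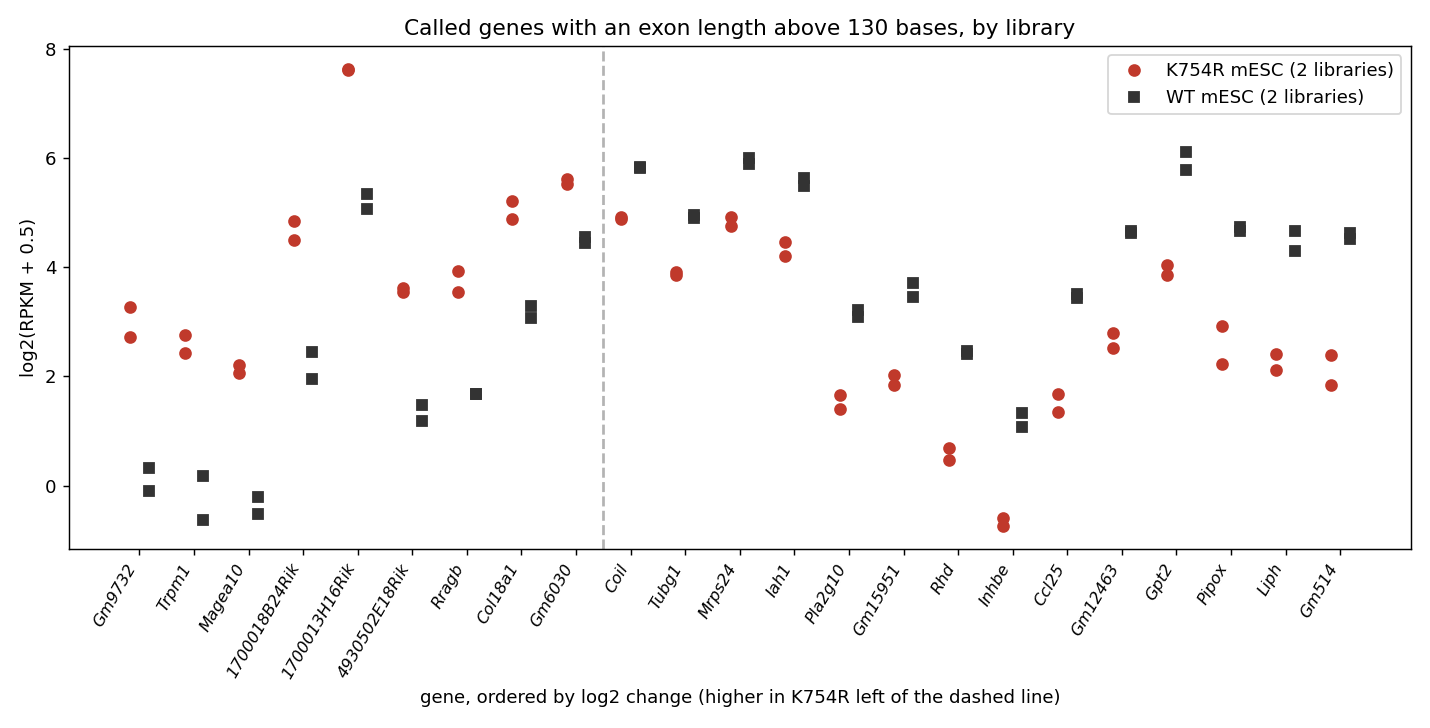
Level of the called genes with an exon length above 130 bases in each library, as log2(RPKM + 0.5), with K754R libraries as red circles left of wild type libraries as dark squares; genes run by log2 change. The 2 groups are separate for each gene drawn, from 1700013H16Rik at 198 and 194 RPKM in K754R to Inhbe at 0.166 and 0.103.

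The called genes that fell are given first. Gpt2, a mitochondrial alanine aminotransferase, had 14.1 and 15.99 RPKM in K754R and 54.7 and 68.8 in wild type (log2 change -1.997 ± 0.16, adjusted p = 0.0381). Pipox, a peroxisomal oxidase of sarcosine and pipecolic acid, had 7.09 and 4.19 RPKM in K754R and 26.2 and 24.8 in wild type (-2.12 ± 0.23). Liph, a phospholipase that makes lysophosphatidic acid, had 4.82 and 3.84 RPKM in K754R and 19.04 and 24.86 in wild type (-2.21 ± 0.22). In each of the 3 genes every K754R value was below every wild type value by more than the spread within either group.

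Pla2g10, a secreted phospholipase, had 2.64 and 2.16 RPKM in K754R and 8.81 and 8.03 in wild type (-1.62 ± 0.18). The chemokine gene Ccl25 had 2.70 and 2.06 RPKM in K754R and 10.9 and 10.3 in wild type (-1.96 ± 0.20), and its exons share bases with Elavl1 on the other strand, so reads of the 2 cannot be assigned with certainty. Inhbe, which encodes a subunit of the activin and inhibin family, had 0.166 and 0.103 RPKM in K754R and 1.61 and 2.03 in wild type (-1.87 ± 0.22), and Rhd, of the Rh blood group family, had 0.894 and 1.11 in K754R and 5.02 and 4.82 in wild type (-1.86 ± 0.21). These genes are low in both groups. Gm514, with no role given here, fell by 2.46 on the log2 scale to 3.09 and 4.74 RPKM in K754R, against 22.4 and 24.3 in wild type.

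Other called genes fell less and are at higher levels. Coil, which encodes coilin of the Cajal body, had 29.6 and 29.0 RPKM in K754R and 56.9 and 56.0 in wild type (-0.93 ± 0.11, adjusted p = 0.0473). Tubg1, gamma-tubulin of the centrosome, had 13.97 and 14.65 RPKM in K754R and 30.7 and 29.3 in wild type (-1.04 ± 0.12). Mrps24, a protein of the mitochondrial ribosome, had 26.6 and 29.9 RPKM in K754R and 63.7 and 58.7 in wild type (-1.10 ± 0.11), and Iah1, an esterase, fell by 1.22 on the log2 scale. Coil, Tubg1, Mrps24 and Pipox lie on chromosome 11, whose genes are lower as a whole in K754R, as given further on. Mrps24, Iah1 and Coil share exon bases with a neighbour (Urgcp, Adam17 and 2210409E12Rik) and are uncertain on that account.

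Among genes that rose, 1700013H16Rik on chromosome X had the smallest adjusted p, 0.0151. It had 198 and 194 RPKM in K754R and 32.9 and 39.8 in wild type (2.42 ± 0.14). Rragb, a Rag GTPase that passes amino acid signals to mTORC1, had 14.7 and 11.2 RPKM in K754R and 2.71 and 2.72 in wild type (2.05 ± 0.23). Col18a1, the basement membrane collagen XVIII, had 29.0 and 36.3 RPKM in K754R and 7.87 and 9.25 in wild type (1.87 ± 0.19). Trpm1, a cation channel of melanocytes and retinal bipolar cells, had 6.31 and 4.87 RPKM in K754R and 0.144 and 0.639 in wild type (2.82 ± 0.31), and shares exon bases with Gm44722 on the other strand. Magea10, of the X-linked MAGE-A family, had 3.70 and 4.10 RPKM in K754R and 0.199 and 0.364 in wild type (2.50 ± 0.24). The lncRNA row 1700018B24Rik (2.47 ± 0.27), the protein coding rows 4930502E18Rik (2.25 ± 0.21) and Gm9732 (2.89 ± 0.32) and the pseudogene Gm6030 (1.07 ± 0.12) rose as well. Gm6030, and the pseudogenes Gm12463 and Gm15951 that fell, may hold reads of a parent gene.

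Of the 34 called rows, 9 are of 130 bases or less and rest on at most 10 estimated reads in any of the 4 libraries. AL772216.14, a microRNA row within Sfmbt2, which encodes a Polycomb group protein, came to an estimated 4 and 10 reads in K754R and to 0 in both wild type libraries, and the neighbouring rows AL772216.30 and AL772216.1 were also higher in K754R. Sfmbt2 itself had 16.3 and 10.9 RPKM in K754R and 6.95 and 5.55 in wild type (1.04 ± 0.25, adjusted p = 0.146). Mir211, which lies inside Trpm1 on the same strand, came to 4 and 8 reads in K754R and 0 in both wild type libraries. Total RNA libraries do not select mature microRNAs, and reads on this row and reads from the transcript of Trpm1 around it cannot be told apart. The mature miRNAs of this hairpin in RefSeq (build GRCm38.p6, plus strand, chr7:64205831-64205852 for the 5p arm and chr7:64205868-64205888 for the 3p arm) are shown because their host gene is among the called genes, with the seed, bases 2 to 8, in capitals.
mmu-miR-211-5p: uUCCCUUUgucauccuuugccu
mmu-miR-211-3p: gCAAGGACagcaaaggggggc

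The next 5 genes by p-value missed the call. Cox7a1, a subunit of cytochrome c oxidase, had 33.4 and 34.4 RPKM in K754R and 114 and 90.1 in wild type (log2 change -1.56, adjusted p = 0.0581). Polr3d, a subunit of RNA polymerase III, had 32.8 and 38.3 in K754R and 17.52 and 17.995 in wild type (0.98, adjusted p = 0.0589). Map3k15 (1.80), Rhox1 (1.69) and Ccdc43 (-1.16) were the others. Ccdc43 lies on chromosome 11, which is lower as a whole in K754R, and Rhox1 on X, which is higher, as given further on.

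The called genes were looked up in libraries that played no part in the call. In day 5 EBs, where 9.68% of 19300 genes passed, 27 of the 34 were tested, 16 had the same sign and 4 passed in the same direction. Pipox fell to 0.432 and 0.388 RPKM in K754R EBs, against the wild type EBs' 1.80 and 1.89 (-1.37 ± 0.17, adjusted p = 0.00727). Rhd (-1.54 ± 0.26, adjusted p = 0.0167), Pla2g10 (-1.19 ± 0.26, 0.0319) and Coil (-0.62 ± 0.13, 0.0269) fell too. Pipox and Coil lie on chromosome 11, which is lower as a whole in K754R EBs too (median log2 change -0.36), as given further on. The small RNA rows AL772216.30 and AL772216.1 passed in the opposite direction.

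In EloA null CCE mESCs, where 3.35% of 18460 genes passed (2.12% as higher and 1.23% as lower), 30 of the 34 were tested, 18 had the same sign and 4 passed in the same direction. Liph had 1.46, 1.32 and 1.02 RPKM in EloA null and 4.84, 4.49 and 4.84 in wild type CCE (-1.57 ± 0.12, adjusted p = 0.00339). Ccl25 fell by 1.05 on the log2 scale (adjusted p = 0.0121), Gm9732 rose by 1.62 (0.00356) and Rragb rose by 0.62 (0.049). The gene with the smallest adjusted p in K754R mESCs went the other way: 1700013H16Rik had 2.01, 1.22 and 2.46 RPKM in EloA null and 13.4, 10.4 and 11.5 in wild type CCE (-2.38 ± 0.21, adjusted p = 0.004).

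The other substitution of the same lysine shared the sign of many of these changes, set against the same wild type libraries, so the 2 comparisons are not independent. In K754M mESCs Gpt2 had 20.4 and 22.9 RPKM, Liph 5.41 and 7.42, Ccl25 2.51 and 2.50, Col18a1 22.05 and 17.1, and Trpm1 3.31 and 3.46, values that lie nearer to K754R than to wild type on the log2 scale. Magea10 had 0.786 and 0.683 RPKM, Rragb 2.60 and 3.64, and Gm9732 0.326 and 0.759, values that lie nearer to wild type. No gene passed between K754M and wild type (limma, 2103 genes at an unadjusted p below 0.05).

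Tested directly against K754M, none of the 34 passed, with adjusted p from 0.0698 upward, which does not show that the 2 lines are alike. Gm9732 came to a log2 difference of 2.97 ± 0.32 (adjusted p = 0.0785), Rragb to 1.89 ± 0.23 (0.0944) and 1700013H16Rik to 1.01 ± 0.14 (0.101). In that test 2 other genes, 0.00952% of those tested, were higher in K754R, and they are named here because they are the only 2 called. The X-linked gene Gm364 had 72.4 and 55.0 RPKM in K754R and 6.53 and 9.16 in K754M (2.95 ± 0.20, adjusted p = 0.0438). Ube1y1, a Y-linked ubiquitin-activating enzyme gene, had 14.5 and 9.94 RPKM in K754R and 0.421 and 0.479 in K754M (3.72 ± 0.27, adjusted p = 0.0438). Wild type lay between them in Gm364, at 36.6 and 33.3 RPKM, and in Ube1y1, at 7.74 and 4.96, and both have a level in K754M below wild type. Y-linked genes were low in K754M as a whole. By the measure defined in the next paragraph, 7 of 8 were apart and lower than in wild type, against 5.42% of all genes tested. The median log2 difference from wild type of the 6 Y-linked genes with a mean of 1 RPKM or more was -2.28 and -1.97 in the K754M libraries.

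Gene groups were described by another measure as well, since so few genes passed. A gene is called apart here where both K754R libraries lie on 1 side of both wild type libraries and the group means differ by at least 1.5-fold on the log2(RPKM + 0.5) scale. Over all tested genes 1762 (8.39%) were apart and higher and 1502 (7.15%) apart and lower, and the median log2 change was 0.01. These shares are the background for every list of K754R mESCs counted with all 4 libraries. The lists were chosen with earlier results of these data known, so a count above background is a description and not a test.

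Genes of the Atf4 amino acid response were lower in K754R than in wild type CJ7 as a group. Atf4 is a transcription factor whose translation rises when amino acids run short or translation initiation is inhibited, and its targets make, import and charge amino acids. Of 48 genes tested, 28 were apart and lower, none was apart and higher, and the median log2 change was -0.77. Only Gpt2 and Inhbe passed the test.

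**Figure D2:**
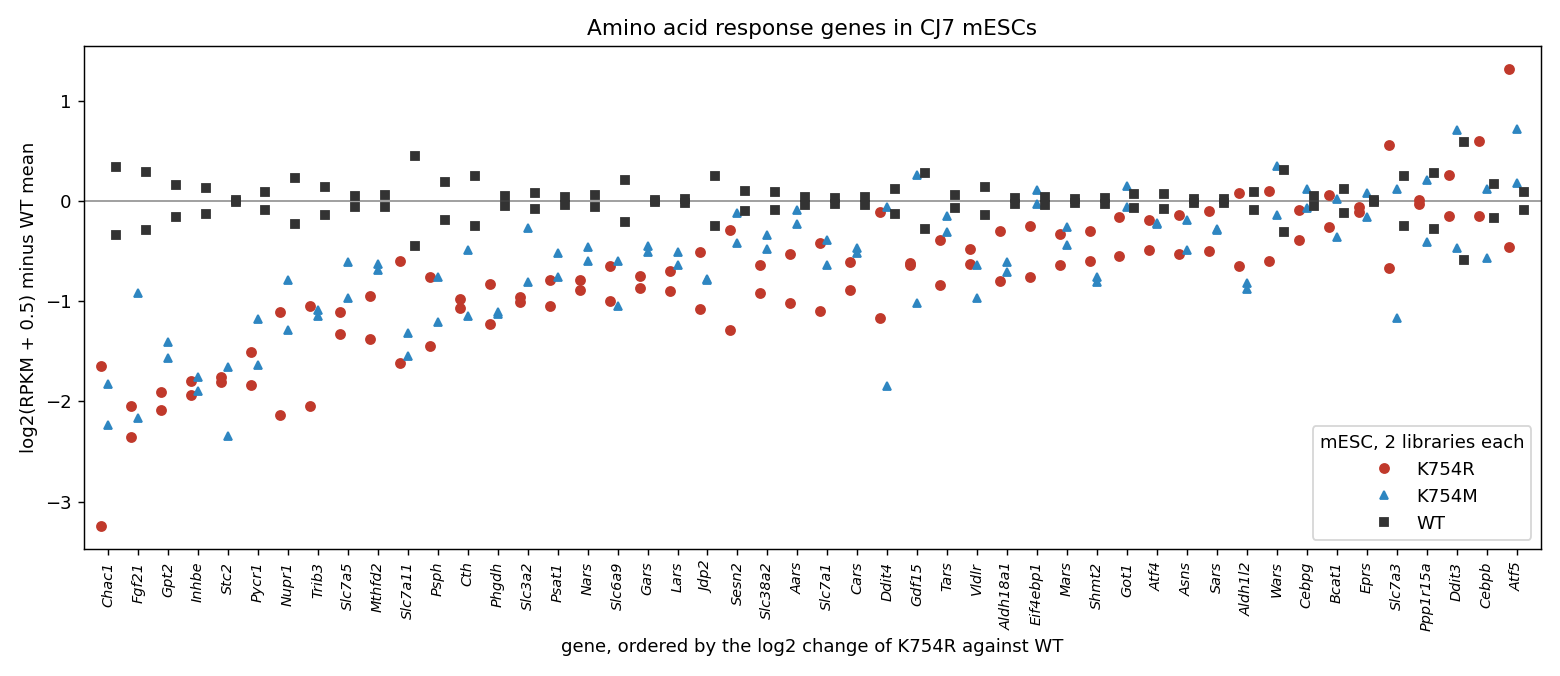
Each gene of the Atf4 amino acid response list in CJ7 mESCs, as log2(RPKM + 0.5) minus the wild type mean, with K754R as red circles, K754M as blue triangles and wild type as dark squares, 1 point per library. The K754R points lie below the wild type points from Chac1, at a log2 change of -2.44, through most of the list, and scatter around 0 at the right, where Atf5 is at 0.43.

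Enzymes that make amino acids and one-carbon units had lower values without passing. Psat1, of serine synthesis, had 72.1 and 86.5 RPKM in K754R and 145 and 154 in wild type (-0.91, adjusted p = 0.0747). Mthfd2, of mitochondrial folate metabolism, had 29.7 and 40.5 in K754R and 75.2 and 81.5 in wild type (-1.16, adjusted p = 0.0659). Pycr1, of proline synthesis, had 7.37 and 5.79 in K754R and 23.4 and 20.5 in wild type (-1.67, adjusted p = 0.0592), and lies on chromosome 11. In all 3 genes the groups do not overlap.

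Transport and charging genes had the same direction. Slc7a5, a transporter of large neutral amino acids, had 19.3 and 22.6 RPKM in K754R and 47.3 and 51.1 in wild type (-1.22, adjusted p = 0.0626). Gars, the glycyl-tRNA synthetase, had 183 and 199 in K754R and 338 and 332 in wild type (-0.81, adjusted p = 0.0659), and Nars, for asparagine, had 160 and 172 in K754R and 285 and 309 in wild type (-0.84, adjusted p = 0.0659). Both synthetases are separated by more than the spread within either group.

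The stress regulators of the list were lower with more spread between the K754R libraries. Chac1, which degrades glutathione, had 2.60 and 8.88 RPKM in K754R and 22.7 and 36.6 in wild type (-2.44, adjusted p = 0.128). Trib3, a pseudokinase that restrains Atf4, had 4.35 and 9.22 in K754R and 17.8 and 21.6 in wild type (-1.55, adjusted p = 0.113). The RNA of Atf4 itself was 95.7 and 118 RPKM in K754R and 128 and 142 in wild type (-0.34, adjusted p = 0.33). Ddit3 and Ppp1r15a, which act later in the stress response, had log2 changes of 0.05 and -0.01.

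Off chromosomes 11, 14 and X, 26 of 45 genes of the list were apart and lower. Against the same wild type libraries, 21 of 48 were apart and lower in K754M (median log2 change -0.53, background 5.42%) and 25 of 48 in Eed null (-0.63, background 11.2%). The 3 comparisons share the 2 wild type libraries and are not independent. Other libraries gave other values. K754R EBs had 3 of 46 genes called lower and none called higher at a median of -0.14. Of all EB genes 4.85% were called lower and 4.82% higher. Nupr1 (-1.79 ± 0.40), Cth (-1.68 ± 0.29) and Eif4ebp1 (-0.65 ± 0.14) were those that passed. By the apart measure 9 of the 46 were lower and 2 higher in EBs, where 9.61% and 8.55% of all EB genes were. EloA null CCE mESCs had 1 of 47 called lower (background 1.23%) at a median of 0.00. In CCE wild type mESCs Psat1, Mthfd2, Pycr1, Slc7a5 and Trib3 lay between the K754R and the wild type CJ7 values. Chac1, at 8.50, 7.09 and 7.70 RPKM there, lay within the range of K754R. Atf4, at 163, 151 and 158 RPKM, lay above both CJ7 groups. Whether the list is low in K754R or high in wild type CJ7 was not tested.

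Atf4 binds with C/EBP partners to an element whose core is TGATGNAA. In RefSeq promoters (build GRCm38.p6, from 250 bases before to 50 after each start), 39 of the 48 genes were matched, and 14 of these held TGATGNAA on either strand, against 4.51% of the 27025 genes with a promoter there. Of the 14, 11 were apart and lower in K754R, and of all 39 matched genes 23 were. The list was made of Atf4 response genes, so its larger share with the motif than that of all genes is no result about K754R. A match to these letters is a description of the sequence and not a bound site. The windows that follow are those of the 6 genes with the motif and a log2 change below -1.5, with the match in capitals, each read 5′ to 3′ on the strand that carries it.
Chac1: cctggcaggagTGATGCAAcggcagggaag
Fgf21: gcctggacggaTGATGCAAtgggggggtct
Inhbe: gtggacatgcaTGATGCAAgaaagaggatg
Nupr1: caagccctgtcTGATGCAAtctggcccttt
Pycr1: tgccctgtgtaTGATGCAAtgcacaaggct
Trib3: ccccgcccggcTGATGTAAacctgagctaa
The windows lie at chr2:119351038-119351067 (minus strand, Chac1), chr7:45615611-45615640 (plus, Fgf21), chr10:127352011-127352040 (plus, Inhbe), chr7:126625562-126625591 (plus, Nupr1), chr11:120643833-120643862 (minus, Pycr1) and chr2:152344028-152344057 (plus, Trib3). Fgf21, a secreted metabolic hormone, had 0 and 0.118 RPKM in K754R and 2.63 and 1.58 in wild type (adjusted p = 0.112). Gpt2, the list member with the smallest adjusted p, was matched to a promoter that does not hold these letters.

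Genes of the MAGE and reproductive homeobox families, nearly all on chromosome X, were high in K754R. Magea genes encode proteins normally made in the male germ line, and Rhox genes are homeobox factors of the reproductive tract and placenta. Of 28 tested members of a list of Magea, Mageb, Rhox, Xlr, Nxf2 and Usp26, 16 were apart and higher and 1, Mageb3, which lies on chromosome 2, apart and lower, with a median log2 change of 0.93. Chromosome X was higher as a whole in K754R, at medians of 0.42 and 0.18 in its 2 libraries. Only 2 of the 28, Mageb3 and Magea3, were not placed on X by the annotation. Magea10 alone passed the test, and it did not pass once chromosome medians were subtracted (2.19, adjusted p = 0.052).

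**Figure D3:**
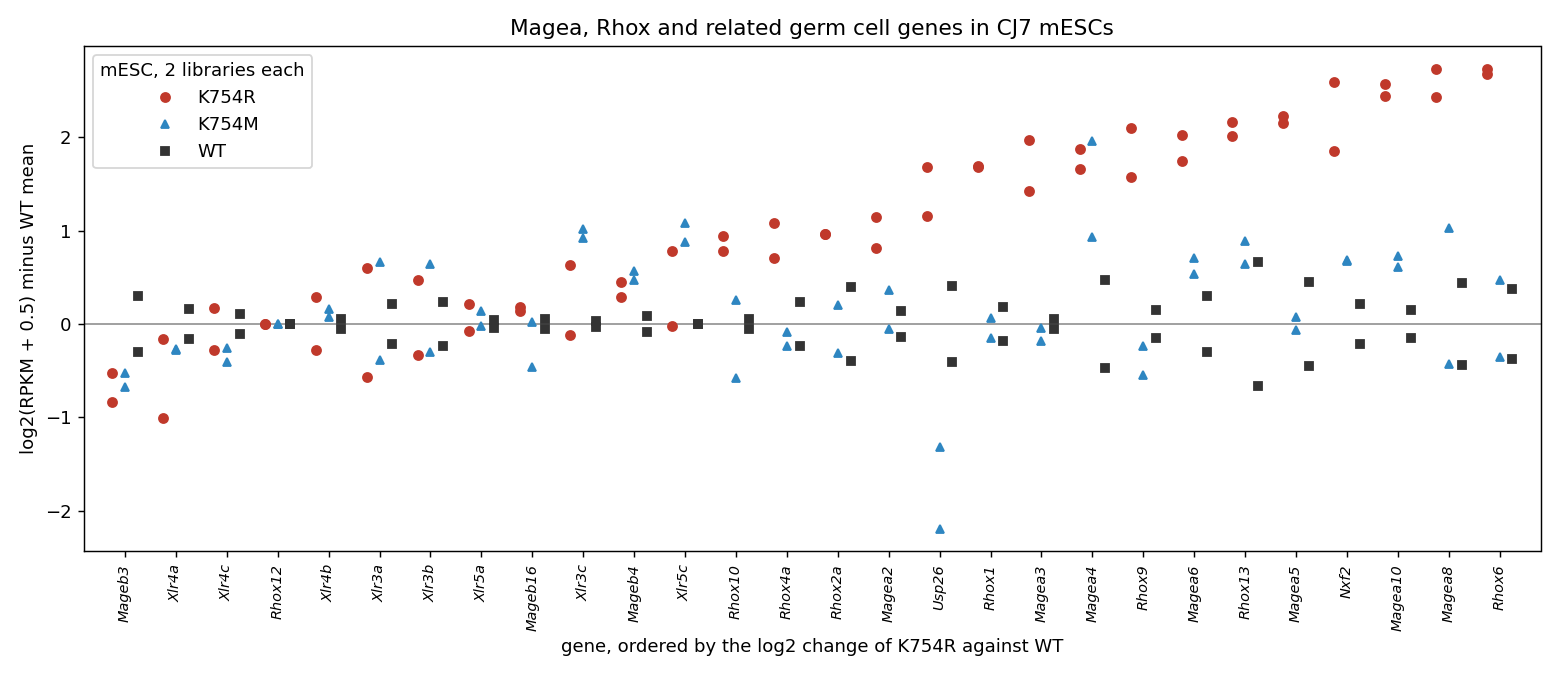
Each gene of the Magea and Rhox list in CJ7 mESCs, as log2(RPKM + 0.5) minus the wild type mean, with K754R as red circles, K754M as blue triangles and wild type as dark squares, 1 point per library. K754R points stand above wild type from Rhox10 to Rhox6, at a log2 change of 2.70, while the Xlr genes at the left overlap with wild type.

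Rhox6, expressed in placenta and germ cells, had 8.09 and 8.38 RPKM in K754R and 0.538 and 1.24 in wild type (2.70 ± 0.34, adjusted p = 0.0592). Rhox9 had 4.47 and 2.94 in K754R and 0.544 and 0.783 in wild type (1.84 ± 0.27, adjusted p = 0.0659). Magea8 had 10.45 and 8.37 in K754R and 0.715 and 1.74 in wild type (2.58 ± 0.52, adjusted p = 0.112). The groups do not overlap in any of the 3. Members of the Magea family are near-identical copies, so their reads may have been split or shared between rows. In K754M, 6 of 28 were apart and higher (background 5.22%) and the median was 0.06, and Rhox6 had 0.552 and 1.36 RPKM there.

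EBs and CCE cells gave other directions. In K754R EBs 16 of the list were tested, and 5 passed as lower, with none higher, where 4.85% of all EB genes passed as lower. Rhox6 fell to 2.07 and 1.55 RPKM in K754R EBs, while wild type EBs had 6.18 and 6.38 (-1.56 ± 0.27, adjusted p = 0.0167), and Rhox9 fell by 0.96 on the log2 scale (adjusted p = 0.043). Magea8 and Magea10 were listed at 0 in all 4 EB libraries. In EloA null CCE mESCs 7 of 18 passed as lower and none as higher, where 1.23% of all genes passed as lower and 2.12% as higher. Other germ cell genes were split, with 9 of 37 apart and higher and 6 apart and lower in K754R mESCs. Without the second K754R library 15 were apart and higher, a count with no background, since the no-overlap rule is then easier to meet. Slc25a31, a testis ADP/ATP carrier, had 19.5 and 13.2 RPKM in K754R and 0.892 and 2.63 in wild type (2.99 ± 0.43, adjusted p = 0.0659), and Asz1, a germ cell protein of piRNA processing, had 14.9 and 10.1 in K754R and 1.51 and 2.09 in wild type (2.49 ± 0.31, adjusted p = 0.0592).

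Matrix genes were higher in K754R, unevenly between its 2 libraries. Of 39 collagen and basement membrane genes 19 were apart and higher and none apart and lower (median log2 change 0.79), and of 38 fibroblast markers 17 were apart and higher and none lower (median 0.95). Col18a1 passed and was alike in both K754R libraries. Col3a1, a fibrillar collagen of mesenchyme, had 31.7 and 181 RPKM in K754R and 24.1 and 26.6 in wild type (1.56, adjusted p = 0.412). Thbs1, a matrix glycoprotein, had 193 and 684 in K754R and 132 and 188 in wild type (1.20, adjusted p = 0.491). Col3a1 and Thbs1 are highest in the second K754R library, as is the summed level of the fibroblast markers, whose part in these differences was not tested. Without that library 7 collagen and basement membrane genes and 5 fibroblast markers were apart and higher, while without the first K754R library 32 fibroblast markers were, and without the second wild type library 28. With 1 library left out, the no-overlap part of the rule is easier to meet. No share of all genes is given for that setting, so these counts have no background. More feeder cells and more of these RNAs per cell cannot be told apart in bulk RNA. In K754M mESCs the summed fibroblast markers were also uneven, at 929 and 2174 RPKM. In K754R EBs 9 of 38 collagen and basement membrane genes passed as higher and none as lower. Of 33 fibroblast markers 12 passed there as higher and 1 as lower, against 4.82% and 4.85% of all EB genes. Laminins were closer in the 2 K754R mESC libraries. Lamb2 had 23.0 and 30.6 RPKM in K754R and 15.5 and 12.8 in wild type, and Lama5 had 22.7 and 24.1 in K754R and 13.7 and 11.2 in wild type, without passing (adjusted p = 0.128 and 0.142).

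None of the Polycomb, Elongin and Hox genes passed the test in K754R mESCs. Of 12 PRC2 genes, 2 were apart and lower, Suz12 and Rbbp4, with 57.7 and 39.1 RPKM in K754R and 79.9 and 78.0 in wild type for Suz12 (-0.73, adjusted p = 0.169), which lies on chromosome 11. Eed had 93.3 and 108 in K754R and 105 and 119 in wild type. Of 39 Elongin and elongation factor genes 3 were apart and lower, with none called, and Tceb1 and Tceb2, for Elongin C and Elongin B, had log2 changes of -0.11 and -0.27. Of 46 developmental transcription factors that Polycomb holds in stem cells, 3 were apart and higher and 2 apart and lower, shares near the background. In K754R EBs 9 of 39 were apart and higher and 1 apart and lower, against 8.55% and 9.61% of all EB genes. Of the 39, 5 passed as higher and 1 as lower, against 4.82% and 4.85% of all EB genes. Among 30 Hox genes 8 were apart and higher and none lower, and Hoxc12 had the largest difference, with 6.36 and 8.68 RPKM in K754R and 2.28 and 2.35 in wild type (1.49, adjusted p = 0.0659), while the other 7 reached at most 2.24 RPKM. Of 28 pluripotency genes 4 were apart and higher and the median was 0.02, and in K754R EBs 13 of 28 passed as lower (background 4.85%). Lefty1, a Nodal antagonist, had 47.4 and 84.3 RPKM in K754R mESCs and 2.93 and 10.3 in wild type mESCs (3.39 ± 0.52, adjusted p = 0.0728).

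Among 29 lipase and lipid handling genes 4 were apart and higher and 2 apart and lower, with only Liph called and a median of -0.06. Among other groups, 5 of 18 Wnt target genes were apart and higher, in each case most in the second K754R library, as in Sp5 with 2.15 and 12.1 RPKM in K754R and 0.559 and 1.05 in wild type. Sterol synthesis genes had a median of -0.41, with 5 of 23 apart and lower. Fdps, which makes farnesyl diphosphate, had 32.2 and 23.0 RPKM in K754R and 59.3 and 58.7 in wild type (-1.10, adjusted p = 0.0725).

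Grouped by chromosome, K754R libraries departed from wild type over whole chromosomes. Over the 14116 genes with a mean of 1 RPKM or more, the median log2 difference from wild type was 0.02 and -0.04 in the K754R libraries. On chromosome 11 it was -0.39 and -0.44, and 56.9% of its 1195 genes had both K754R values below both wild type values, against 22.4% of all such genes. On chromosome 14 it was 0.37 and 0.26, with 53.7% of 445 genes above both wild type values, and on chromosome X 0.42 and 0.18, with 48.1% of 568 genes above, against 21.1% of all. The direction held in each of 4 equal stretches of these 3 chromosomes by gene order, from -0.39 to -0.45 on chromosome 11, 0.26 to 0.39 on chromosome 14 and 0.29 to 0.32 on X. DNA copy number was not measured.

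**Figure D4:**
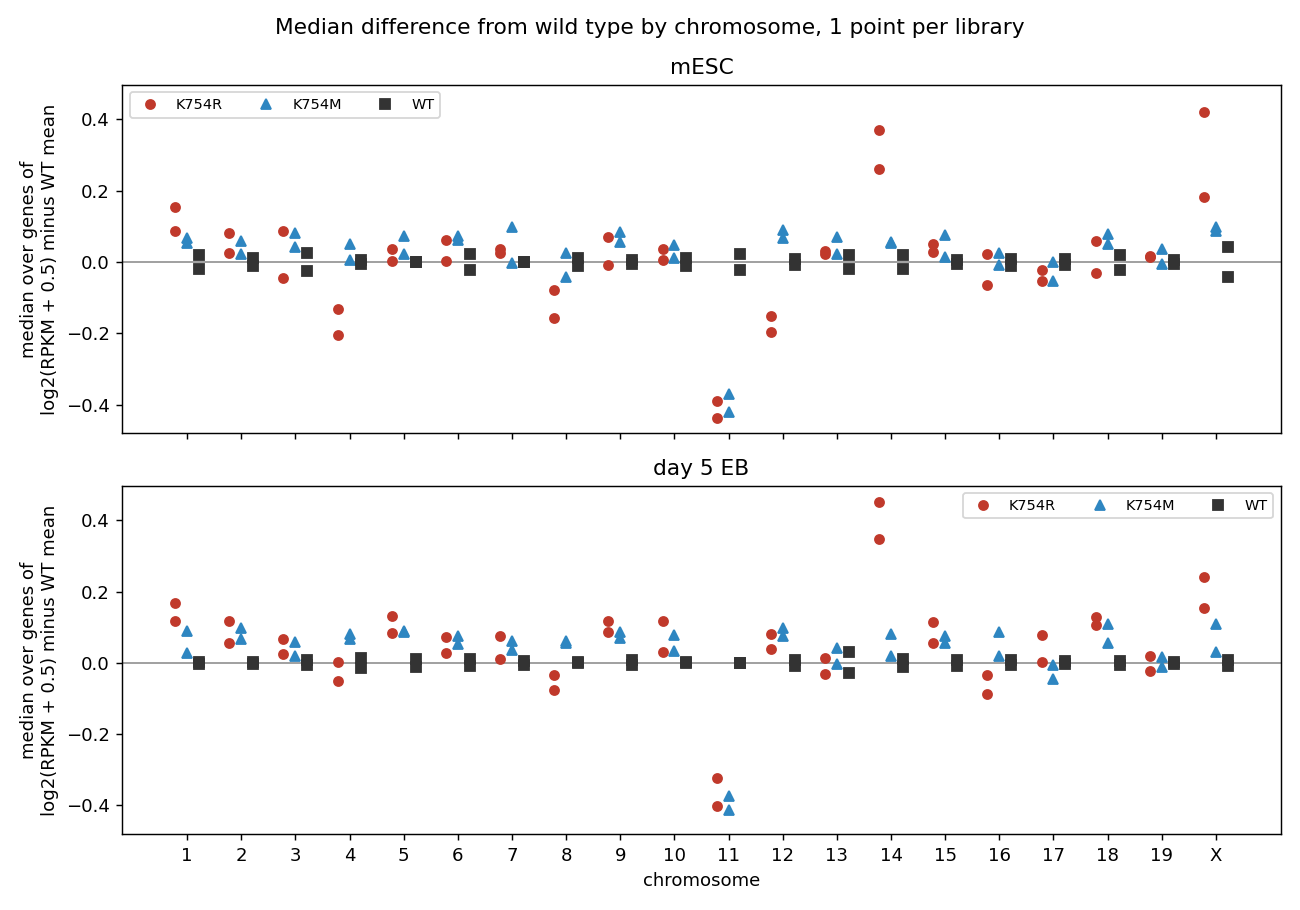
Median over genes of log2(RPKM + 0.5) minus the wild type mean for each chromosome, 1 point per library, in mESCs above and day 5 EBs below, with K754R as red circles, K754M as blue triangles and wild type as dark squares. Chromosome 11 is at about -0.4 in K754R and K754M at both stages, and chromosome 14 lies between 0.26 and 0.45 in the 4 K754R libraries.

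The same shifts stood in the K754R EBs, which are separate libraries with their own wild type. There the medians were -0.40 and -0.32 on chromosome 11 (64% of genes below both wild type values, background 28.5%), 0.35 and 0.45 on chromosome 14 (67.6% above, background 33.6%) and 0.15 and 0.24 on X (47.2% above). Chromosome 12 was at -0.15 and -0.20 in K754R mESCs and 0.04 and 0.08 in K754R EBs. On the other 15 autosomes medians of the group difference lay from -0.13 to 0.13 in mESCs.

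The other substitution and the Eed null line also had the chromosome 11 difference. K754M was at -0.37 and -0.42 and Eed null at -0.36 and -0.35 relative to the same wild type libraries. Set against the CCE wild type mean, chromosome 11 was at -0.03 and -0.12 in K754R and at 0.38 and 0.34 in wild type CJ7. On chromosome 14 the order was the reverse, with 0.47 and 0.34 in K754R and 0.04 and 0.10 in wild type CJ7 relative to CCE wild type. K754M had 0.05 and 0.06 on chromosome 14 relative to CJ7 wild type.

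Once each library's chromosome medians were subtracted, 22 genes were called, 20 of them among the 34. Gpt2, Liph, Ccl25, Col18a1, Pla2g10 and 1700013H16Rik passed in that fit, and Coil, Tubg1, Mrps24 and Pipox on chromosome 11, Magea10 and Rragb on X and Gm9732 on chromosome 14 did not (adjusted p from 0.052 to 0.179).

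Chromosome 4, which carries Tceb3, shifted over part of its length. Cut into 4 equal stretches by gene order, its first 2 had medians of 0.02 and 0.02 in K754R mESCs, and its last 2 had -0.41 and -0.40. In blocks of 40 genes the K754R libraries were at -0.03 and 0.05 in the block from Tspan1 to Ipo13, at -0.27 and -0.18 in the next, from St3gal3 to Cap1, and at -0.51 and -0.37 in the one from Mycl1 on. From there to the end of the chromosome the medians of the blocks lay between -0.69 and -0.15. K754M had medians of 0.03 and 0.02 in the last 2 stretches.

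**Figure D5:**
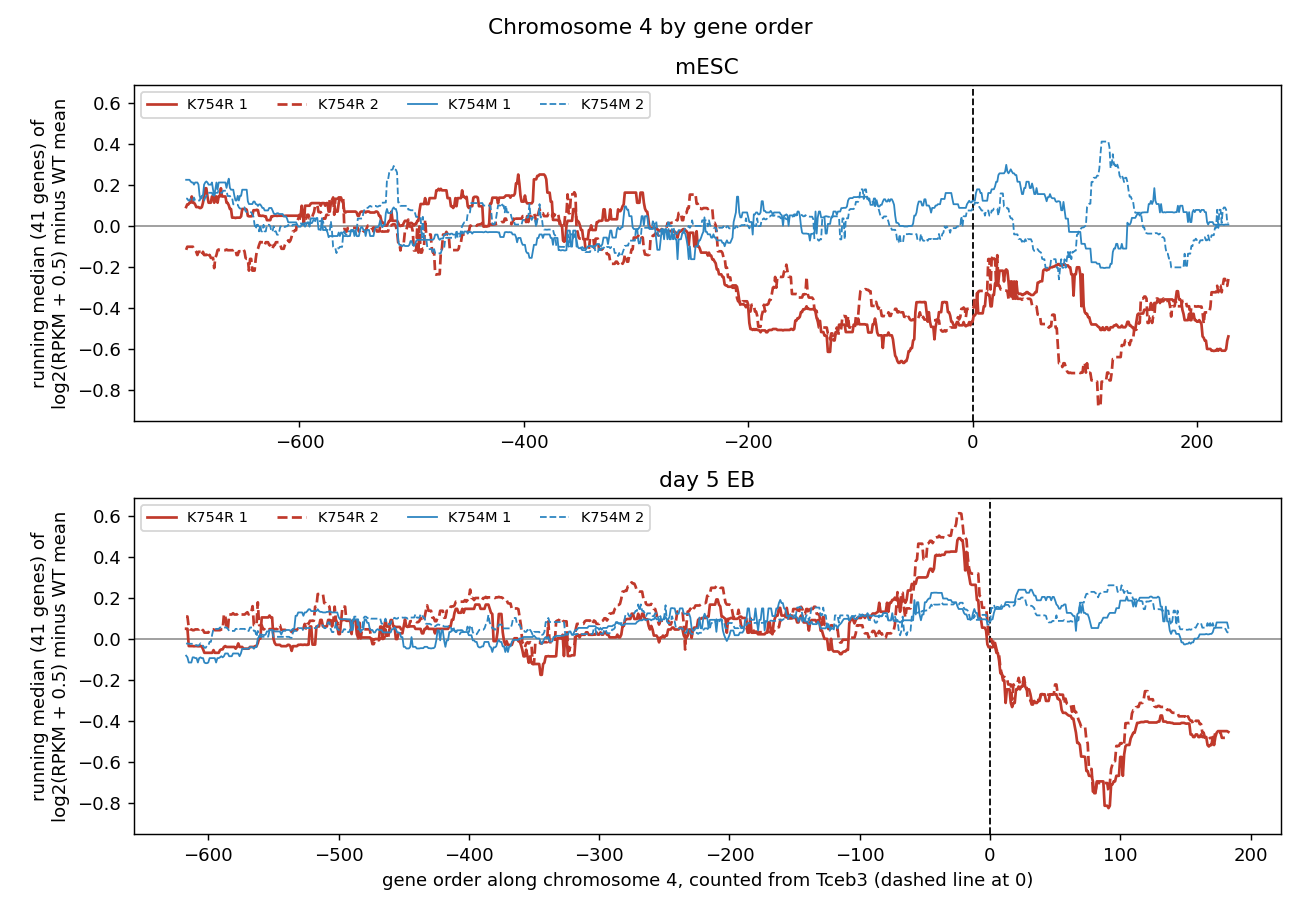
Running median over 41 genes of log2(RPKM + 0.5) minus the wild type mean along chromosome 4, by gene order counted from Tceb3 (dashed line), for each K754R library in red and each K754M library in blue, in mESCs above and day 5 EBs below. In mESCs the K754R lines drop well before Tceb3 and stay below 0, and in EBs they are above 0 just before Tceb3 and cross to below 0 near it.

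In K754R EBs the change of level lay within a few genes of Tceb3. The 40 genes before Tceb3 had medians of 0.45 and 0.53 in the 2 K754R EB libraries, with 11 genes called higher and 3 lower, and the 40 genes after it had medians of -0.24 and -0.20, with 1 called higher and 7 lower (background 4.82% higher and 4.85% lower). Over all 203 genes after Tceb3, 168 were below the wild type mean in both K754R EB libraries and 45 were called lower, against 2 called higher. The genes named here were chosen after their values were seen. Pnrc2, a nuclear receptor coactivator gene that also acts in mRNA decay, lies 6 expressed genes before Tceb3 and had 52.1 and 51.1 RPKM in K754R EBs and 16.32 and 16.002 in wild type EBs (1.65 ± 0.12, adjusted p = 0.00122). The last gene before Tceb3, 1110049F12Rik, fell by 0.55 on the log2 scale (adjusted p = 0.0379). Rpl11, a ribosomal protein gene next after Tceb3, had 126 and 108 RPKM in K754R EBs and 235 and 266 in wild type EBs (-1.10 ± 0.23, adjusted p = 0.0289).

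In K754R mESCs the 40 expressed genes before Tceb3 were at -0.43 and -0.50 and the 40 after it at -0.28 and -0.22. Pnrc2 had 25.04 and 19.3 RPKM in K754R mESCs and 36.4 and 33.3 in wild type mESCs. The 2 stages differ in sign before Tceb3 and share it after. This difference between stages was not tested. In K754M EBs the medians were 0.14 and 0.16 before Tceb3 and 0.23 and 0.20 after it. Rhd, which fell at both stages, lies on chromosome 4.

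The sex chromosomes were read from single genes, chosen after their values were seen. Xist, the RNA that coats the inactive X, had 2.50 and 2.70 RPKM in K754R mESCs and 2.07 and 1.88 in wild type mESCs (0.33 ± 0.22, adjusted p = 0.564). In EBs it rose to 27.5 and 35.7 RPKM in K754R, against 0.149 and 0.366 in wild type (5.41 ± 0.24, adjusted p = 0.000468), and was 0.257 and 0.354 in K754M EBs. Y-linked RNAs were detected in K754R. Kdm5d, a histone demethylase, had 4.503 and 3.62 RPKM in K754R mESCs and 1.37 and 1.42 in wild type mESCs, and Eif2s3y, a translation factor, had 42.5 and 24.3 in K754R and 55.5 and 46.9 in wild type. Of 8 Y-linked genes 5 were apart and higher in K754R mESCs and 1, Eif2s3y, apart and lower. In K754R EBs 6 were tested, and 2 passed as lower and none as higher, against 4.85% and 4.82% of all EB genes. These 2 were Ddx3y (-0.59 ± 0.14, adjusted p = 0.0462) and Eif2s3y (-0.64 ± 0.10, adjusted p = 0.014).

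Medians differed little with expression level and gene length. By level in CCE wild type cells, the median log2 change ran from 0.08 in genes of 0.25 to 1 RPKM to -0.05 in genes of 64 RPKM and more, and the lowest bin was at 0.00 without the first K754R library. Elongin A is an elongation factor, so length was examined too. The 1326 genes of 100 kb or more had a median of 0.09, with 11.7% apart and higher and 3.77% apart and lower, and the shorter bins had medians from -0.02 to -0.01.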

How the data were processed

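The authors deposited RPKM values per gene, which are not counts. Per the submitters' processing notes CASAVA 1.7, STAR and mm9 were used; no source used here gives the annotation, the counting tool, strand use or the number of clones. Depth was estimated from the step of 1 read: 97.6% to 98.3% of values up to 10 reads were within 0.1 of a whole read, over 4042 single-exon small RNA genes in the 4 libraries compared.

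Genes with at least 0.25 RPKM in 2 of the 8 CJ7 mESC libraries were tested with limma-trend (limma 3.58.1, R 4.3.3) on log2(RPKM + 0.5), in 1 fit of the 4 mESC genotypes, with Benjamini-Hochberg adjustment over 21012 genes and a threshold of 0.05. EBs and CCE cells had fits of their own, that of EBs over the same 4 genotypes of CJ7. The script was tested on simulated data. Summaries used Python 3.11.15 with pandas 2.3.3 and numpy 2.4.6.

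Chromosomes, gene order and exon lengths came from GENCODE M21 by gene ID (19687 of 21012 tested genes, 93.7%). Its coordinates are not those of mm9 and only order was used. Promoters and miRNAs came from RefSeq.

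The members and lists were chosen with earlier results of these data known. Named were Tceb3, every called gene, the next 5 by p-value, and in each of 35 lists the called members and up to 3 with the largest log2 change at a mean of 1 RPKM or more. Other genes named were chosen after their values were seen. Another 4 deposited columns belong to samples whose labels contradict each other and were not used. Some flagged or named genes are not reported here. Alternatives changed the pseudocount, filter, scaling, libraries in the fit and replicate block.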

Additional observations from a re-analysis of the deposited data

Results flagged for a closer look

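Some named genes lay on opposite sides of wild type at the 2 stages: both K754R mESC libraries were on 1 side of both wild type mESC libraries, and both K754R EB libraries on the other side of both wild type EB libraries, with means at least 1.5-fold apart at each stage. The difference between the stages was not tested. The log2 change is given first for mESCs and then for EBs.

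Of genes with more than a few reads, Map3k15 was at 1.80 in mESCs and -2.001 in EBs, and Rhox6 at 2.70 and -1.56. Genes of early embryonic signalling were among them, with T (Brachyury) at 1.84 and -2.54, Lefty2 at 2.14 and -1.78, the Wnt targets Sp5 at 2.17 and -0.90 and Axin2 at 1.19 and -0.65, and the germ cell and pluripotency gene Dppa3 at 0.81 and -2.21. Slc38a4, an amino acid transporter, was at -1.39 and 0.64.

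The remaining ones are small RNA rows with at most 10 estimated reads in the mESC libraries. AL772216.30 was at 2.16 and -2.35, AL772216.14 at 3.10 and -1.27, AL772216.1 at 3.01 and -1.69, Mir1190 at 2.10 and -0.91, 1 U6 row at 2.24 and -0.67, and a 5S_rRNA row at -2.14 and 0.65.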

How the results depend on the processing

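With 2 libraries per group the number of K754R mESC calls, 34, depends on the fit. It was 27 at a pseudocount of 0.1, 37 at 1, 33 after quantile normalization, 35 after scaling to the same median and 24 with a filter of 1 RPKM. It was 14 with no filter, 2 with a replicate block, 0 in a fit of the 4 libraries alone, 0 with any 1 library left out and 1747 in a fit of all 14 mESC libraries. Alternatives chosen after seeing the data gave 22 with chromosome medians subtracted, 22 without chromosomes 11, 14 and X, and 84 without small RNA, pseudogene and unannotated rows. The cause was not tested. The 34 genes kept their direction in all 385 values under settings other than leaving out a library. A change of pseudocount or filter cannot turn a gene whose groups do not overlap.

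The 2 calls against K754M became 0 at a pseudocount of 1, with no filter, under quantile normalization, under median scaling, with a replicate block, in the 4-library fit and with any library left out, and 841 in the 14-library fit. The 1868 EB calls became 1199 with no filter, 2950 with a replicate block and 177 to 1249 with 1 library left out. The 619 EloA null calls became 2288 with a replicate block, 296 in the 14-library fit and 158 to 640 with 1 library left out. Same-numbered K754R and wild type mESC libraries deviated together with a correlation of 0.21 (0.28 from 1 RPKM), K754R and K754M libraries with 0.35 (0.45) and K754R and Eed null libraries with 0.08 (0.12). The labels do not say what a number marks, and each comparison has 2 pairs, too few to show pairing.

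The log2 change of 8 genes, none of them called, turned with 1 library left out, over a range of -1.32 to 0.26 for Pramel6, -1.76 to 0.57 for Tubb3, -0.20 to 1.74 for Bmp4, -0.11 to 2.68 for Cxcl12, -0.24 to 3.47 for Isg15, -2.58 to 0.12 for Fabp3, -0.30 to 2.35 for Snord118 and -0.17 to 0.32 for Eif1a. Over all tested genes the chromosome 11 median was -0.34. Without 1 library, members apart and higher numbered 7 at the lowest among collagen genes, 5 to 32 among fibroblast markers and 15 at the highest among germ cell genes. These counts have no share of all genes beside them. The median of the lowest expression bin was 0.0016 at the lowest without 1 library.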
